A study of Arabidopsis thaliana with 8 samples.

Results

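Messenger RNA of Arabidopsis thaliana was compared between blue light and darkness in 4 of the 8 libraries of the series, 2 labelled dark and 2 labelled blue. These libraries were chosen by label alone, and the account below covers nuclear genes, chiefly those outside the light-harvesting antenna and the photosystems. The other 4 libraries hold ribosome footprints, sequenced fragments of mRNA shielded by ribosomes, under the same light conditions, and serve here as a second readout. The labels name the treatment only. Accession, genotype, tissue, age, light dose and time in the light are not stated, nor whether replicates came from separate plants, so the p-values reflect only how much these libraries spread, which may be technical. The mRNA libraries were made from total RNA with a TruSeq kit, per the labels.

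Seedlings raised in darkness hold their plastids without chlorophyll, spend reserves and elongate. Whether these samples came from such seedlings is not stated in the labels. Blue light is perceived by cryptochromes and phototropins, and also acts through phytochromes. Greening then draws on many nuclear genes whose proteins are imported into the plastid, while genes of growth in the dark and of carbon starvation are switched down.

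Each of the 4 libraries had 688630 to 847469 counts, spread over 27416 loci. Nuclear loci took 48.2 to 51.5% of them, and the unnamed AT1G40104, AT2G08986 and AT2G07981 held 24.5 to 37.0% of the nuclear counts between them. Across tested nuclear loci, which are not independent replicates, the dark pair of libraries had a Spearman correlation of 0.64 and the blue-light pair 0.611. Of 9 root markers 8 or 9 had a count in every library, and their summed level was 201 and 209 CPM (counts scaled to a common library size) in the dark and 156 and 161 in blue light. Of 9 seed storage and oil body markers 6 or 7 had a count, at summed levels of 51.6 to 68.4 CPM in the dark and 49.3 to 74.4 in blue light. The part of these tissues in the results below was not tested.

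Outside the antenna and photosystems, 271 of 7583 tested nuclear mRNAs changed, or 3.57%, at an adjusted p under 0.05 in edgeR's quasi-likelihood test. Rises were more frequent than falls, with 189 mRNAs higher in blue light (2.49%) and 82 lower (1.08%). Of the 41 tested antenna and photosystem genes 33 rose, which brings the nuclear total to 304 of 7624 (3.99%), of which 222 were higher (2.91%). Rises of at least 4-fold numbered 86 and falls of that size 32, and 23 rises and 7 falls reached 8-fold. The median log2 fold change was 1.91 among the rises and -1.82 among the falls, against 0.01 over all tested loci. The groups did not overlap in any of the 271 called loci, and in 41.6% of all tested ones. Separation of the groups, where given for a gene below, is thus shared by every called locus.

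Few calls were made at low depth. Among loci with a mean of under 20 counts per library 0.859% were called, and the smallest called change there was 1.62 on the log2 scale. The share was 5.8% between 20 and 50 counts, 19.4% between 50 and 100 and 29.3% at 100 or more. Counts were also simulated at this depth, with the same spread for all loci. Of the loci given a 1 log2 unit change 9.2% were called, and 70.8% at 2 units. An mRNA without a call was thus not shown to be unchanged. With each library left out in turn, 98 of the rises and 24 of the falls were called in all 4 fits. None of the 271 changed direction in a fit that tested it. Because the groups did not overlap in any of them, leaving out 1 library could hardly reverse one. A call described below as lost is a test that no longer passed. The fold moved by over 1.5 times in 42 of the 271. The number of falls over all nuclear loci, 82, became 49 without dark replicate 2, 52 without blue replicate 2 and 128 without dark replicate 1.

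**Figure D1:**
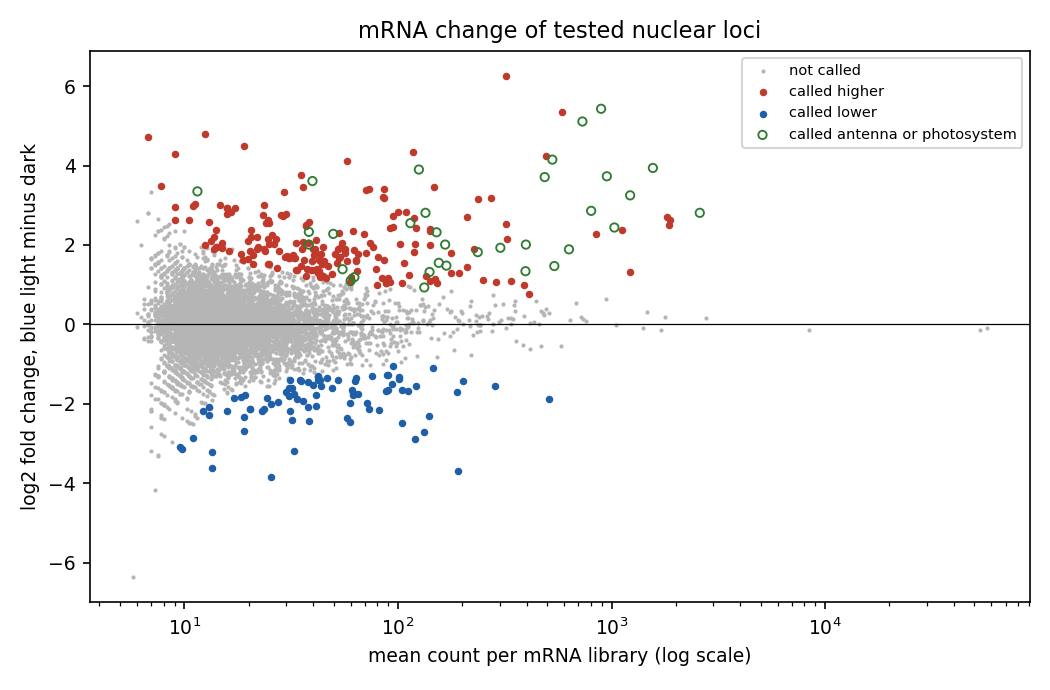
Fitted log2 fold change (blue light minus dark, vertical) against mean count per mRNA library (horizontal, log scale) for 7624 tested nuclear loci, where each point is 1 locus. Red points mark the 189 called rises and blue points the 82 called falls outside the antenna and photosystems, and green rings the 33 called antenna and photosystem genes. Called changes at low counts are large, and smaller changes are called only at higher counts.

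Among called loci with a mean of at least 30 counts, the early light-induced proteins ELIP1 and ELIP2 had the largest rises, at log2 fold changes of 6.26 and 5.34, as the 2 called of 4 tested genes in the photoprotection list. AT3G17800, a locus with no name in the reference table, came next. It had 12 and 16 counts in darkness and 212 and 228 in blue light, a change of 4.35 ± 0.33 on the log2 scale (± SE, as below; adjusted p = 1.66e-10). Both blue libraries stood far above both dark ones, and its footprints rose by 2.94 ± 0.08.

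Both tested genes named for pyridoxine biosynthesis, which make the ring of vitamin B6, were among the 12 largest rises. RSR4 (AT5G01410, also PDX1.3) was counted 10 and 6 times in the dark and 93 and 121 times in blue light, a change of 4.11 ± 0.40 (adjusted p = 2.75e-08). PDX1.1 (AT2G38230) was counted 4 and 11 times in the dark and 65 and 64 times in blue light, a change of 3.46 ± 0.43 (adjusted p = 1.8e-06), or 4.29 without dark replicate 2. In neither gene did the groups overlap. Their footprints rose by 2.63 and 4.36. This pair was singled out after its values were seen.

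RPT2 (AT2G30520), a protein of phototropin signalling named for root phototropism, was counted 15 and 22 times in the dark and 160 and 146 times in blue light, a change of 3.42 ± 0.32 (adjusted p = 1.31e-08). UGT84A2 (AT3G21560), the glucosyltransferase that makes the sinapate ester of glucose, had 20 and 11 counts in the dark and 127 and 124 in blue light, a change of 3.38 ± 0.35 (adjusted p = 7.84e-08). FTSH1 (AT1G50250), a subunit of the thylakoid protease that clears damaged photosystem II protein, had 16 in both dark libraries and 126 and 136 in blue light, a change of 3.41 ± 0.34 (adjusted p = 3.18e-08). All 3 genes were separated cleanly between the groups, with replicates close to each other. The others among the 12 were GUN5 at 4.25, TT4 at 3.76, HEMA1 at 3.47 and FBA1 at 3.20, which belong to the pathways below. Each of the 12 was called with any single library left out, although without dark replicate 2 HEMA1 was at 4.27 and FBA1 at 3.82.

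**Figure D2:**
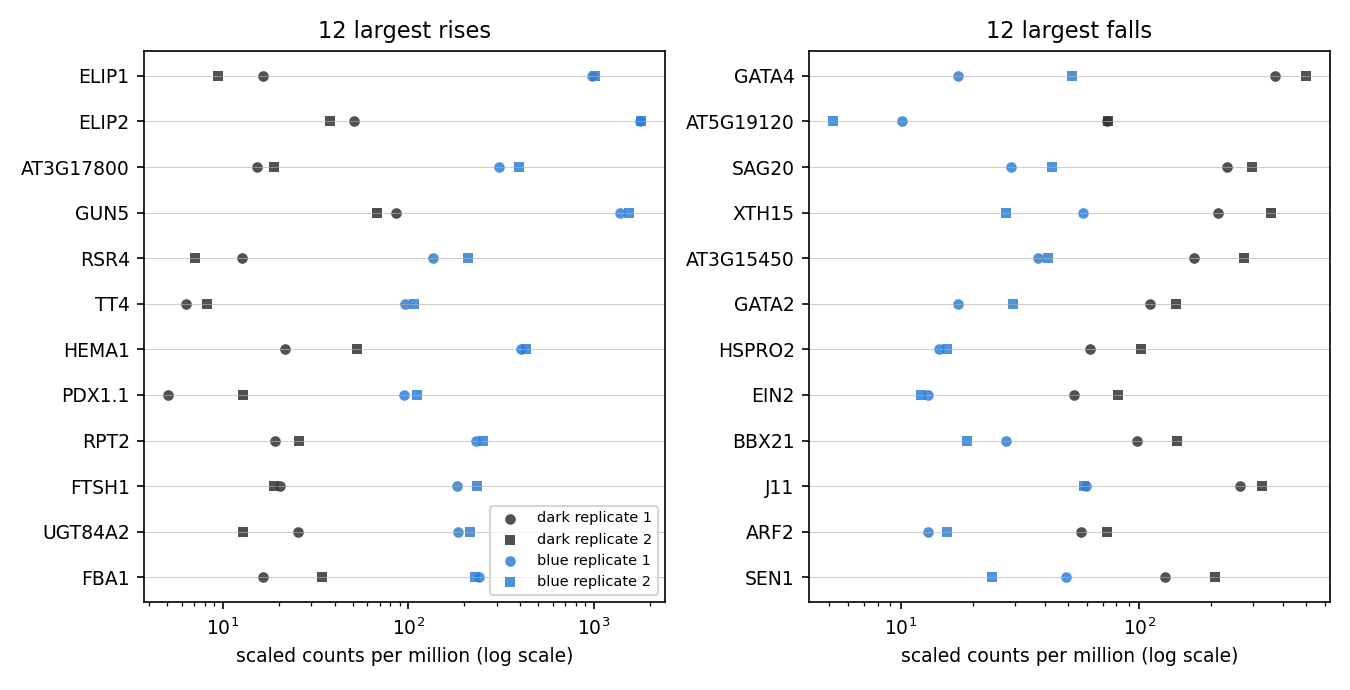
Scaled CPM in each mRNA library (horizontal, log scale) for the 12 largest rises (left) and the 12 largest falls (right) with a mean of at least 30 counts, where dark libraries are black, blue-light libraries blue, circles replicate 1 and squares replicate 2. Genes were shown only if both blue-light values lay on 1 side of both dark values, which held for all called loci.

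Genes of carbon fixation rose together. Of 20 listed genes of Rubisco and the Calvin cycle, all tested, 14 rose and none fell, with a median of 2.36 against 0.01 over all tested loci. PRK (AT1G32060), the phosphoribulokinase that regenerates the acceptor of carbon dioxide, was counted 49 and 72 times in the dark and 447 and 382 times in blue light, a change of 3.15 ± 0.26 (adjusted p = 8.1e-10). FBA1 (AT2G21330), a plastid aldolase, had 13 and 29 counts in the dark and 165 and 133 in blue light, a change of 3.20 ± 0.33, and its relative FBA2 rose by 2.41 ± 0.30, or 3.09 without dark replicate 2. RCA (AT2G39730), Rubisco activase, had 50 and 90 counts in the dark and 389 and 313 in blue light, a change of 2.70 ± 0.27 (adjusted p = 3.54e-08). Every blue-light count of these genes exceeded every dark one by a wide margin.

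The small subunits RBCS1B, RBCS3B, RBCS1A and RBCS2B rose by 2.70, 2.63, 2.50 and 2.38, but these copies are near-identical and can share reads. CP12-1, a regulatory protein of the cycle, rose by 2.56 ± 0.45 and PGK1, phosphoglycerate kinase, by 1.67 ± 0.33. TKL1, a transketolase, showed one of the smaller rises, at 1.09 ± 0.24, and lost its call without dark replicate 1, blue replicate 1 or blue replicate 2 (adjusted p = 0.055, 0.0519 and 0.114). Footprints of all 20 genes rose, with a median of 1.47. Among all nuclear loci tested in both assays 28.1% rose and 18.7% fell in footprints, and footprint counts below are to be set beside these shares.

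Carriers of photosynthetic electrons and the nuclear subunits of the chloroplast ATP synthase rose in 7 of 9 tested cases, of 12 listed, with a median of 1.91, although only 4 were called without blue replicate 2. FD1 (AT1G10960), a ferredoxin that takes electrons from photosystem I, had 51 and 86 counts in the dark and 497 and 454 in blue light, a change of 3.18 ± 0.26 (adjusted p = 8.1e-10). FED A (AT1G60950), another leaf ferredoxin, had 262 and 460 in the dark and 1256 and 1397 in blue light, a change of 2.28 ± 0.23. The ATP synthase subunits ATPD and ATPC1 rose by 2.27 ± 0.32 and 2.04 ± 0.33. These 4 kept their calls with any library left out. Footprints of all 9 tested genes rose, against 28.1% of nuclear loci tested in both assays.

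Photorespiration, which recovers carbon when Rubisco binds oxygen, rose in 6 of 15 tested genes, of 16 listed, with a median of 0.99. CAT2 (AT4G35090), the catalase that removes peroxisomal hydrogen peroxide, was counted 107 and 128 times in the dark and 352 and 323 times in blue light, a change of 1.90 ± 0.24 (adjusted p = 2.5e-06). GLDP1 (AT4G33010), a subunit of glycine decarboxylase, had 62 and 75 counts in the dark and 247 and 181 in blue light, a change of 2.01 ± 0.26 (adjusted p = 4.38e-06). The groups were well apart in both. GS2, plastid glutamine synthetase, rose by 1.79 ± 0.30 in mRNA, while its footprint value was 0.09 (adjusted p = 0.312). Over the whole list, footprints rose for 13 of the 15 and fell for 1, against 28.1% and 18.7% of nuclear loci tested in both assays. GGT1 and GDCH rose by 2.11 each. Without blue replicate 1 they were at 1.87 and 1.93 and neither was called (adjusted p = 0.0698 and 0.285), and GDCH, at 1.89, was not called without dark replicate 1 (0.126).

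In tetrapyrrole and chlorophyll synthesis 7 of 18 tested genes rose, of 22 listed, with a median of 0.89. HEMA1 (AT1G58290), glutamyl-tRNA reductase, had 17 and 45 counts in the dark and 279 and 250 in blue light. GUN5 (AT5G13630), a subunit of magnesium chelatase, had 68 and 58 in the dark and 956 and 896 in blue light. The other called members were AT1G74470, geranylgeranyl reductase, at 2.53 ± 0.26, CHLI1 at 2.35 ± 0.34, CRD1 at 2.15 ± 0.24, the chelatase regulator GUN4 at 1.83 ± 0.27 and PORB at 1.08 ± 0.24. PORB, a light-dependent protochlorophyllide oxidoreductase, lost its call without dark replicate 1 or blue replicate 2 (adjusted p = 0.0605 and 0.17).

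Carotenoid and isoprenoid precursor genes rose in 3 of 11 tested cases, of 20 listed, with a median of 1.06. PSY (AT5G17230), phytoene synthase, which commits carbon to carotenoids, had 15 and 12 counts in the dark and 70 and 51 in blue light, a change of 2.51 ± 0.38. ABA1, zeaxanthin epoxidase, rose by 2.83 ± 0.53 and BETA-OHASE 1, a carotene hydroxylase, by 1.77 ± 0.34. All 3 kept their calls with any library left out. In phenylpropanoid and flavonoid synthesis 3 of 14 tested genes rose, of 20 listed, with a median of 0.86. TT4 (AT5G13930), chalcone synthase, had 5 and 7 counts in the dark and 66 and 62 in blue light, and C4H rose by 1.62 ± 0.31. TT5, chalcone isomerase, had 2 dark and 34 blue counts in all, a ratio of 22 (95% counting interval 5.64 to 189), and was not called without blue replicate 1 or 2 (adjusted p = 0.414 and 0.219).

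Genes that build and maintain the plastid formed the next group. Of 25 tested genes for chloroplast chaperones, proteases and protein import, of 28 listed, 10 rose and none fell, with a median of 1.17. That list holds none of the DNA J co-chaperones that fell, which are described below. CPN60A (AT2G28000), a subunit of the chaperonin that folds Rubisco, had 20 and 48 counts in the dark and 194 and 175 in blue light, a change of 2.82 ± 0.32 (adjusted p = 3.42e-07), or 3.52 without dark replicate 2. Its co-chaperone CPN20 rose by 2.93 ± 0.55 and the beta subunit CPN60B by 1.91 ± 0.35. VAR1 (AT5G42270), like FTSH1 a subunit of the thylakoid protease, had 37 and 58 counts in the dark and 196 and 194 in blue light, a change of 2.42 ± 0.29. Plastid HSP70 cpHsc70-2 and the signal recognition particle subunit CPSRP54, which delivers antenna proteins to the thylakoid, rose by 2.25 ± 0.44 and 2.05 ± 0.37. The first was at 2.89 without dark replicate 1. Footprints rose for 24 of the 25, against 28.1% of nuclear loci tested in both assays.

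Among nuclear genes listed for chloroplast translation 6 of 27 tested rose, of 29 listed, with a median of 0.71. AT2G43030 was counted 16 and 46 times in the dark and 182 and 156 times in blue light, a change of 2.83 ± 0.34 (adjusted p = 7.68e-07), or 3.71 without dark replicate 2. AT3G13120 had 79 and 115 counts in the dark and 265 and 253 in blue light, a change of 1.8 ± 0.26 (adjusted p = 1.78e-05). Both were separated between the groups. Their footprints moved little, by 0.32 (adjusted p = 0.000689) for AT2G43030 and with a value of -0.09 (adjusted p = 0.333) for AT3G13120. EMB3126 (AT3G63490), which carries the words ribosomal protein in its names, rose by 1.74 ± 0.35 in mRNA and had a footprint value of 0.09 (adjusted p = 0.324). Over the whole list, footprints rose for 18 of the 27 and fell for none, against 28.1% and 18.7% of nuclear loci tested in both assays.

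Other plastid genes that rose lay outside the lists and were picked after their values were seen. FAD5 (AT3G15850), a plastid fatty acid desaturase, had 7 and 6 counts in the dark and 60 and 44 in blue light, a change of 3.34 ± 0.44. The paired plastid ATP carriers NTT1 and ATNTT2 rose by 2.12 ± 0.36 and 1.89 ± 0.38, and CLPP5, a proteolytic subunit of the Clp protease, by 2.59 ± 0.38. The change of CLPP5 was not matched by a called footprint change, with a footprint value of 0.15 (adjusted p = 0.157).

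Regulatory genes moved in both directions. In the light signalling and clock list 8 of 27 tested genes rose and 3 fell, of 42 listed, with a median of 0.31, and the rises numbered 5 without dark replicate 2 or blue replicate 2 and 4 without blue replicate 1. GATA-type transcription factors split. CGA1 (AT4G26150), a promoter of greening, had 1 and 3 mRNA counts in the dark and 22 and 50 in blue light, a change of 4.49 ± 0.65 (adjusted p = 2.48e-05). It lay between 3.62 and 5.33 with 1 library left out, and limma-voom did not call it (adjusted p = 0.695). GATA4 (AT3G60530) went the other way, with 293 and 425 counts in the dark and 12 and 30 in blue light, a change of -3.69 ± 0.35 (adjusted p = 1.19e-08), or -4.65 without blue replicate 2 and -3.04 without blue replicate 1. GATA2 (AT2G45050) had 88 and 121 in the dark and 12 and 17 in blue light, a change of -2.45 ± 0.36. In CGA1, GATA4 and GATA2 the replicates of a group differed by less than the groups did, although the blue-light counts of CGA1 and of GATA4 were far apart.

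Among 11 tested loci whose names hold GATA transcription factor, 2 rose and 2 fell. The fourth, GNC, rose by 1.96 ± 0.54. It was at 1.55 without dark replicate 2 and 1.79 without blue replicate 1, and was called in neither fit (adjusted p = 0.269 and 0.271). B-box proteins, zinc-finger regulators of light responses, also split, with 3 of 11 tested higher and 2 lower. STH (AT2G31380) had 6 and 7 counts in the dark and 38 and 43 in blue light, a change of 3.0 ± 0.46. COL4 (AT5G24930) rose by 2.03 ± 0.29 with a footprint value of -0.10 (adjusted p = 0.332), whereas BBX21 (AT1G75540) fell from 77 and 123 counts to 19 and 11, a change of -2.36 ± 0.37. STO rose by 1.52 ± 0.43 but lost its call without each library in turn (adjusted p from 0.0783 to 0.235). COL5 fell by 1.54 ± 0.41. It was at -2.55 without blue replicate 1 (adjusted p = 0.00272), and at -1.14 and -1.0, with no call, without dark replicate 2 or blue replicate 2 (adjusted p = 0.245 and 0.54). Both name classes were chosen after their values were seen.

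GLK2 (AT5G44190), an activator of photosynthesis genes, had 5 and 4 counts in the dark and 25 and 29 in blue light, a change of 2.93 ± 0.55. Limma-voom called neither GLK2 nor HB-12 (adjusted p = 0.349 and 0.321). HB-12 (AT3G61890), a homeodomain factor, rose by 2.92 ± 0.56, or 3.62 without dark replicate 1, and MAPKKK14, a protein kinase of the MAP kinase cascades, by 2.72 ± 0.42. SIGE (AT5G24120), a sigma factor of the plastid RNA polymerase, had 2 dark and 48 blue counts in all, a ratio of 31.1 (95% counting interval 8.15 to 264), and was not called without blue replicate 2 (adjusted p = 0.119). Among 161 tested loci whose names mark them as transcription factors, 4 rose (2.48%) and 5 fell (3.11%). Over all tested nuclear loci outside the antenna and photosystems the shares were 2.49% and 1.08%. The match on names left out called regulators such as GLK2, STH, BBX21 and BES1, so the class does not cover all transcription factors.

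**Figure D3:**
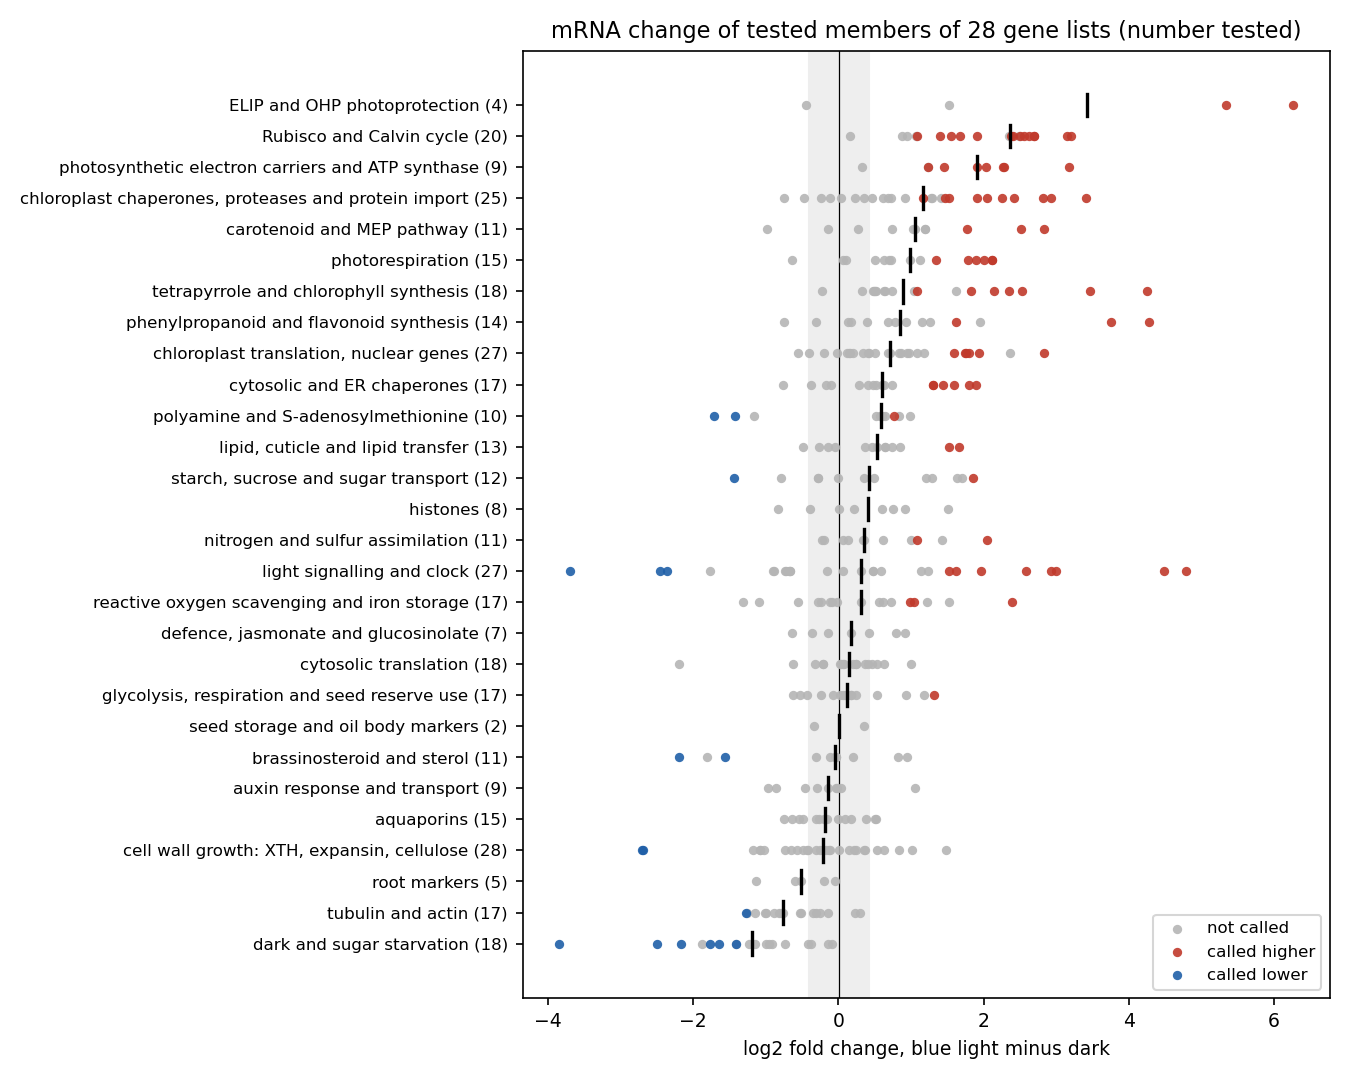
Fitted mRNA log2 fold change (blue light minus dark, horizontal) of the tested members of 28 gene lists, ordered by median, with the number tested in brackets, where each point is 1 gene, red and blue points are called rises and falls, black ticks are list medians and the shaded band runs between the quartiles of all tested loci outside the antenna and photosystems (-0.40 to 0.42). The Rubisco and Calvin cycle list has a median of 2.36 and the dark and sugar starvation list one of -1.18.

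After GATA4, the largest fall with a mean of at least 30 counts was in AT5G19120, with 58 and 63 counts in the dark and 7 and 3 in blue light, a change of -3.20 ± 0.47 (adjusted p = 2.45e-05). SAG20 (AT3G10985), named for senescence and wounding, had 183 and 252 in the dark and 20 and 25 in blue light, a change of -2.88 ± 0.32. HSPRO2 (AT2G40000), a gene named after a nematode resistance gene of sugar beet, had 49 and 86 in the dark and 10 and 9 in blue light, a change of -2.43 ± 0.42. Each was far lower in both blue libraries, and each was called with any library left out. Limma-voom did not call AT5G19120 (adjusted p = 0.207).

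Genes of darkness and sugar starvation fell in 6 of 18 tested cases and rose in none, of 22 listed, with a median of -1.18. In footprints 17 of the 18 fell, against 18.7% of nuclear loci tested in both assays. DYL1 (AT1G28330), a dormancy-associated gene, was counted 36 and 61 times in the dark and 2 and 3 times in blue light, a change of -3.84 ± 0.56 (adjusted p = 2.84e-05), although limma-voom did not call it (adjusted p = 0.61). SEN1 (AT4G35770), a dark-inducible gene, had 101 and 177 in the dark and 34 and 14 in blue light, a change of -2.16 ± 0.35, or -2.76 without blue replicate 1, and AT3G15450 fell by 2.49 ± 0.32 from 134 and 234 counts to 26 and 24. ASN1, asparagine synthetase, fell by 1.76 ± 0.41. Its call was lost without dark replicate 2, at -1.54, or blue replicate 1, at -1.39 (adjusted p = 0.0625 and 0.264).

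MGL, methionine gamma-lyase, fell by 1.77 ± 0.39. It was at -1.32 without dark replicate 2 and -1.53 without blue replicate 1, and was called in neither fit (adjusted p = 0.14 and 0.137). ERD5, proline dehydrogenase, fell by 1.43 ± 0.32. Its call was lost without blue replicate 1 or 2, at -1.55 and -1.33 (adjusted p = 0.0793 and 0.18). The hexose carrier STP1 fell by 1.43 ± 0.39. It was at -1.15, -1.32 and -1.52 without dark replicate 2, blue replicate 1 or blue replicate 2, where it was not called (adjusted p = 0.305, 0.304 and 0.176). In the opposite direction BAM1, a plastid beta-amylase of starch breakdown, rose by 1.86 ± 0.39. BAM1 and STP1 were the called genes among 12 tested in the list of starch, sucrose and sugar transport, of 17 listed, with a median of 0.43.

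A family named KISS ME DEADLY, F-box proteins known to target cytokinin response regulators and phenylalanine ammonia-lyase for breakdown, had 3 of 4 tested members lower. AT2G44130 (KMD3) had 82 and 130 counts in the dark and 27 and 21 in blue light, a change of -1.76 ± 0.33 (adjusted p = 0.000854). AT1G80440 fell by 1.40 and AT3G59940 (KMD4) by 1.41. Neither was called without dark replicate 2, where they were at -0.79 and -1.0 (adjusted p = 0.632 and 0.543), or without blue replicate 1 (0.34 and 0.245) or blue replicate 2 (0.0619 and 0.32). With nuclear loci alone AT3G59940 also missed the threshold (adjusted p = 0.052), which leaves 2 of the 4 lower. The fourth, AT1G15670, had a value of -1.32 (adjusted p = 0.0965), and the footprints of all 4 fell, by 1.52 to 2.26.

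Small DNA J proteins, co-chaperones of HSP70, formed another family with falls. Among 10 tested loci of that name 4 fell and none rose. J11 (AT4G36040) had 208 and 277 counts in the dark and 41 and 34 in blue light, a change of -2.31 ± 0.28 (adjusted p = 1.45e-06). J20 (AT4G13830) had 88 and 113 in the dark and 26 and 19 in blue light, a change of -1.78 ± 0.33. AT2G17880 fell by 2.06 ± 0.40. It was at -2.77 without blue replicate 1, and at -1.63 with no call without blue replicate 2 (adjusted p = 0.0787). J8 fell by 1.6 ± 0.46. It was at -2.26 without blue replicate 1. It was at -0.81 without dark replicate 2 and -1.20 without blue replicate 2, and was called in neither of these fits (adjusted p = 0.816 and 0.422), nor with nuclear loci alone (0.053). The footprints of these 4 fell by 2.09 to 3.84. This family and KISS ME DEADLY were picked after their values were seen.

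Hormone signalling contributed a few falls. EIN2 (AT5G03280), the membrane protein that relays the ethylene signal, was counted 42 and 69 times in the dark and 9 and 7 times in blue light, a change of -2.40 ± 0.44 (adjusted p = 0.000539). EBF2 and EBF1, F-box proteins that degrade the ethylene factor EIN3, fell by 1.86 ± 0.46 and 1.35 ± 0.35. The call of EBF2 was lost without dark replicate 1 or blue replicate 2 (adjusted p = 0.0552 and 0.271), and that of EBF1 without dark replicate 2, blue replicate 1 or blue replicate 2 (0.0568, 0.351 and 0.119). The ethylene receptor ERS1 (AT2G40940) had a value of -2.97 that did not pass (adjusted p = 0.0825). ARF2 (AT5G62000), an auxin response factor, had 45 and 62 counts in the dark and 9 in each blue library, a change of -2.18 ± 0.42 (adjusted p = 0.00111). Of 12 tested loci named for ethylene insensitivity or EIN3 binding 3 fell, and of 14 named as auxin response factors 2 fell. The name class of BES1 and its relatives, described next, had 2 of 4 tested lower. No member of these name classes rose, and the classes were chosen after their values were seen.

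In brassinosteroid signalling BES1, a transcription factor, had 29 and 50 counts in the dark and 4 and 9 in blue light, a change of -2.19 ± 0.51, and was not called without dark replicate 2 or blue replicate 1, at -1.80 and -1.58 (adjusted p = 0.125 and 0.235). It was at -3.02 without blue replicate 2. Its relative BEH2 (AT4G36780) had 115 and 179 in the dark and 40 and 39 in blue light, a change of -1.51 ± 0.30, and was not called without blue replicate 1 (0.109). The list of brassinosteroid and sterol genes had 2 falls, BES1 and the receptor BRI1, among 11 tested, of 18 listed, with a median of -0.05, and no call at all without blue replicate 1.

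Of 28 tested cell wall growth genes, of 40 listed, 2 fell and none rose, with a median of -0.21. Both are xyloglucan endotransglucosylases, which cut and rejoin wall polymers. XTH15 (AT4G14130) was counted 168 and 303 times in the dark and 40 and 16 times in blue light, a change of -2.70 ± 0.34, or -3.33 without blue replicate 1, and XTH30 (AT1G32170) 30 and 38 times in the dark and 4 times in each blue library, a change of -2.68 ± 0.55. Limma-voom did not call XTH30 (adjusted p = 0.513). Without dark replicate 1 the list had 5 falls. None of the tested expansins and cellulose synthases passed. AGP17 (AT2G23130), an arabinogalactan protein outside the list, rose by 2.77 ± 0.45, with 3.92 without dark replicate 2 and 2.1 without dark replicate 1.

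Among 17 tested tubulin and actin genes TUB4 fell, by 1.27 ± 0.30. It was at -1.07, -1.12 and -1.42 without dark replicate 2, blue replicate 1 or blue replicate 2, where it was not called (adjusted p = 0.0611, 0.288 and 0.0882). The list median was -0.76, lower than that of all tested loci, and the list had 4 falls without dark replicate 1. Tubulin genes are very alike and can share reads.

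Cytosolic chaperones rose. In the list for the cytosol and endoplasmic reticulum 6 of 17 tested genes were higher and none lower, of 25 listed, with a median of 0.60, and 3 were higher without blue replicate 2. HSP70 (AT3G12580) had 24 and 18 counts in the dark and 58 and 63 in blue light, and HSP90.1 (AT5G52640) 23 and 22 in the dark and 60 and 61 in blue light. HSP81-2, a constitutive HSP90, rose by 1.44 ± 0.25, but it and its copies HSP81-3 and Hsp81.4 can share reads. The chaperones of the endoplasmic reticulum in the list, BIP1, BIP2, SHD, CNX1 and PDIL1-1, had values from -0.76 to 0.48 and none passed.

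Splicing regulators rose as a name class that was noticed in the results. Of 10 tested loci named for splicing factors or serine and arginine repeats, 5 rose and none fell. RS2Z33 (AT2G37340) was counted 47 and 55 times in the dark and 122 and 119 times in blue light, a change of 1.62 ± 0.29 (adjusted p = 0.000376). SR45a (AT1G07350) had 5 and 10 in the dark and 34 and 44 in blue light, a change of 2.75 ± 0.47, and RS2Z32 (AT3G53500) rose by 2.16 ± 0.44, or 2.95 without dark replicate 2. RS41 rose by 1.73, and was at 1.44 and 1.46 with no call without dark replicate 2 or blue replicate 2 (adjusted p = 0.0672 and 0.164). SCL30A rose by 1.43 but lost its call without each library in turn (adjusted p from 0.0612 to 0.335). Footprints of these 5 rose by 0.42 to 1.38. ATU2AF35A, a subunit of the factor that marks the 3′ end of introns, rose by 2.03 ± 0.42 outside that class.

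Several lists held few calls. In polyamine and S-adenosylmethionine metabolism 2 of 10 tested genes fell and 1 rose, of 18 listed, although the list median was 0.58. Footprints of 9 of the 10 rose, against 28.1% of nuclear loci tested in both assays. Without dark replicate 2 the list had 4 rises, against none without any of the other 3 libraries. The falls numbered 3 without dark replicate 1 and 1 without blue replicate 2. ADC2 (AT4G34710), arginine decarboxylase, had 243 and 368 counts in the dark and 77 and 66 in blue light, a change of -1.71 ± 0.26. The other fall, SAMDC at -1.42 ± 0.27, was not called without blue replicate 2 (adjusted p = 0.082), and the rise, HOG1 at 0.77 ± 0.22, was not called without dark replicate 1, at 0.53, blue replicate 1 or blue replicate 2 (0.346, 0.319 and 0.461), with DESeq2 size factors (0.0677) or with nuclear loci alone (0.135). ICL (AT3G21720), the isocitrate lyase of the glyoxylate cycle, was the only called gene of 17 tested in the list of glycolysis, respiration and reserve use. It had 705 and 967 counts in the dark and 1743 and 1461 in blue light, a change of 1.32 ± 0.20, and both blue libraries were clearly higher.

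In nitrogen and sulfur assimilation NIA2, nitrate reductase, and APR2, which reduces activated sulfate, rose by 1.09 ± 0.28 and 2.05 ± 0.53 among 11 tested genes. NIA2 was not called without dark replicate 1, blue replicate 1 or blue replicate 2 (adjusted p = 0.0607, 0.0951 and 0.383), nor APR2 without dark replicate 1 or blue replicate 1 (0.0904 and 0.268). Among 17 tested genes of reactive oxygen scavenging and iron storage FSD2, FSD1 and FER1 rose, by 2.39, 1.04 and 0.99, but no member was called higher without dark replicate 1 or without blue replicate 2, and 5 were without dark replicate 2. FSD2 was at 3.17 without dark replicate 2. FSD1 was at 0.66 without dark replicate 1, and was also not called without blue replicate 1 (adjusted p = 0.172) or with nuclear loci alone (0.0536). In the lipid list the lipid transfer protein LP1 and the desaturase SSI2 rose by 1.66 ± 0.39 and 1.53 ± 0.34 among 13 tested, with no call without blue replicate 2 and 4 calls without dark replicate 2, where LP1 was not among them (adjusted p = 0.084).

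Some lists had no called member in edgeR. Of 18 tested cytosolic translation genes, 15 aquaporins, 9 auxin genes, 8 histones, 7 defence genes, 5 root markers and 2 seed markers, none passed. At an unadjusted p under 0.05 there were 2, 4, 1, 1, 0, 1 and 0, and DESeq2 and limma-voom also called 0 in each. Leaving out dark replicate 1 gave 3 falls among the aquaporins and 1 among the root markers. In cytosolic translation it took the loss of dark replicate 2 for 1 rise and of blue replicate 2 for 1 fall. The median of the cytosolic translation list was 0.14, and AT1G07920, AT1G07930, AT1G07940 and AT5G60390, listed as elongation factor 1A, had values between -0.21 and 0.08, although these copies can share reads.

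Classes of protein read from gene names were counted over tested nuclear loci outside the antenna and photosystems, of which 2.49% rose and 1.08% fell. Of 34 tested loci named as chaperones 11 rose and 2 fell, the rises in plastid chaperonins, HSP70 and HSP90 and the falls in J11 and J20. Among 209 loci with kinase in a name 3 rose and 3 fell (1.44% each), and among 172 transporters or channels 4 rose (2.33%) and 1 fell (0.581%). These shares lie near the background. Among 121 cell wall proteins 1 rose and 2 fell. Glycosyl hydrolases and transferases rose in 3 of 81 cases and fell in none, and names with ubiquitin or F-box gave 1 rise and 2 falls among 71. Loci named as ribosomal proteins gave 1 rise among 33, peroxidases 1 fall among 20 and lipid transfer proteins or lipases 1 rise among 8. The match on names left out AT2G43030 and AT3G13120, ribosomal protein genes of the chloroplast translation list that rose. None of 91 cytochromes P450 and 9 loci of unknown function passed in edgeR, where 7 and 1 had an unadjusted p under 0.05. DESeq2 called none in either class, and limma-voom called 1 cytochrome P450.

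Most called loci lay in no list, with 107 of the 189 rises and 65 of the 82 falls. A symbol other than the locus code was lacking for 37 of all rises and 29 of all falls. Among rises of this kind AT5G22090 had 21 and 41 counts in the dark and 188 and 130 in blue light, a change of 2.72 ± 0.32, and AT3G08740 had 23 and 20 in the dark and 158 and 144 in blue light, a change of 3.18 ± 0.32. The second had a footprint value of 0.21 that did not pass (adjusted p = 0.214). Among falls AT5G60680 had 98 and 151 counts in the dark and 19 and 24 in blue light, a change of -2.14 ± 0.34, and AT5G09700 fell by 1.56 ± 0.24 with too few footprints to be tested. AT7SL-1 (AT4G02970), a noncoding RNA that forms part of the signal recognition particle, had 709 and 973 counts in the dark and 206 and 144 in blue light, a change of -1.89 ± 0.23. It too had too few footprints for a test. These examples were chosen after their values were seen, except AT5G09700 and AT7SL-1, which were among the falls of highest scaled count.

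The footprint libraries gave a second reading of the changed mRNAs in libraries that the mRNA test did not use. Of the 189 rises, 188 could be tested in footprints and 161, or 85.6%, were also higher there, against 28.1% of all 6068 nuclear loci tested in both assays. Of the 82 falls, 77 could be tested and 57, or 74.0%, were also lower, against 18.7%. The median footprint change was 1.27 for the rises, whose median mRNA change was 1.91, and -1.44 for the falls, whose median mRNA change was -1.78. These loci were chosen by their mRNA call, which favours large fitted mRNA changes, so the sizes in the assays are not directly comparable. Seen from the other side, among loci outside the antenna and photosystems tested in both assays, 9.67% of those with higher footprints and 5.01% of those with lower footprints had a called mRNA change in that direction. The mRNA libraries were the shallower ones and spread more, and the part of this in these shares was not tested.

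**Figure D4:**
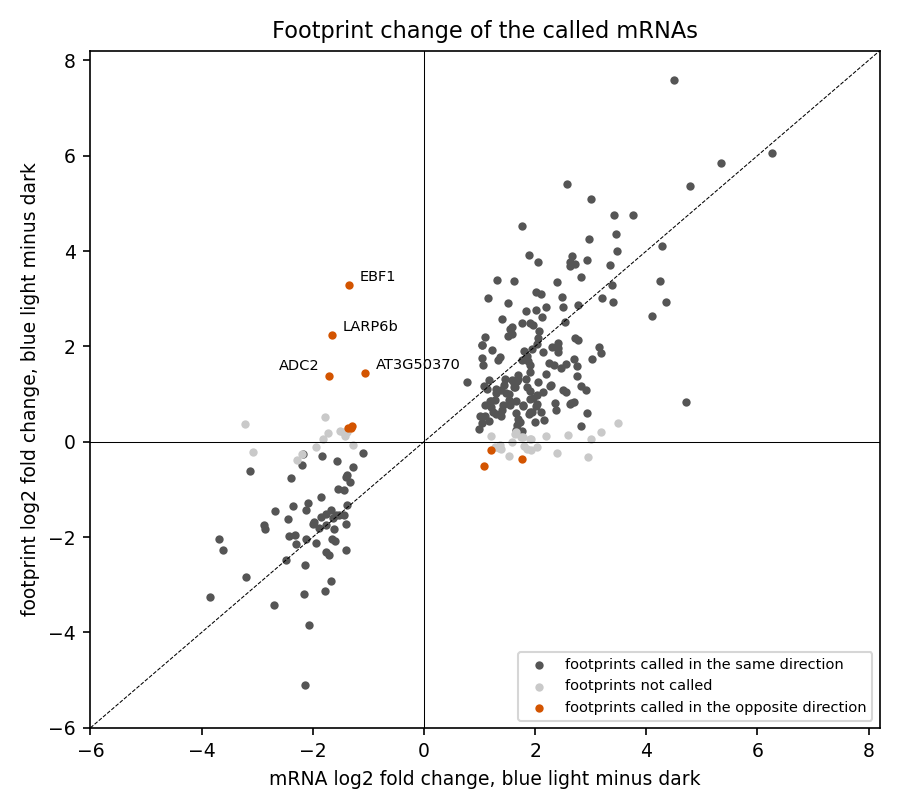
Fitted footprint log2 fold change (vertical) against fitted mRNA log2 fold change (horizontal), both blue light minus dark, for the 265 called mRNAs outside the antenna and photosystems that were also tested in footprints, where each point is 1 locus and the dashed line marks equal changes. Dark grey points were called in the same direction in both assays, light grey points were not called in footprints, and orange points were called in opposite directions. EBF1, LARP6b, ADC2 and AT3G50370 combine lower mRNA with footprints that rose by more than 1 log2 unit.

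A small number of genes had opposite calls in the 2 assays. Footprints were higher for 7 of the falling mRNAs. EBF1 fell by 1.35 in mRNA, from 84.8 and 89.2 to 30.4 and 38.1 CPM, while its footprints rose from 9.70 and 14.4 to 128 and 107 CPM, a change of 3.28 ± 0.15. LARP6b (AT2G43970), an RNA-binding protein of the La-related family, fell by 1.65 ± 0.33 in mRNA, from 108 and 129 to 42.0 and 32.9 CPM, while its footprints rose from 22.0 and 22.9 to 104 and 108 CPM. ADC2 fell from 308 and 432 to 112 and 114 CPM in mRNA and rose from 173 and 174 to 451 and 444 CPM in footprints. In each of these the replicates of both assays stood on their own side. The others were AT3G50370, with footprints higher by 1.44, and HMG1, EDA10 and TIC, with footprints higher by 0.34, 0.29 and 0.28.

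Of these 7 mRNA falls only that of ADC2 was called with any library left out. LARP6b was not called without blue replicate 2 (adjusted p = 0.0862). HMG1, EDA10, TIC and AT3G50370 were not called without blue replicate 2 (0.102, 0.606, 0.428 and 0.478), HMG1 and AT3G50370 also not without blue replicate 1 (0.304 and 0.242), and EDA10 and TIC also not without dark replicate 2 (0.223 and 0.181). Footprints were lower for 3 of the rising mRNAs, all by less than 1 log2 unit. They were PORB, at a footprint change of -0.51, TPP (AT2G30440), a thylakoid processing peptidase, at -0.36, and the protease ALP at -0.18. The mRNA rise of TPP was called with any library left out, and that of ALP was not called without dark replicate 1, at 0.77, blue replicate 1 or blue replicate 2 (adjusted p = 0.378, 0.0602 and 0.359). Whether the ratio of footprints to mRNA differed was not tested here.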

How the data were processed

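Counts of reads per transcript model were deposited by the authors, 1 file per library, as whole numbers with no normalization. TopHat2 2.0.9, Bowtie2 2.1.0, CASAVA 1.8 and the TAIR10 build appear in the submitters' processing notes; the counting tool and its use of strand are not given in the sources used here. A second column resembles a length, but its meaning is not given in the sources used here. Of 41671 models, 6285 with no value in it had 0 counts. For each of 27416 loci the model with the largest value in it was kept, which left 27206 nuclear loci. AT7SL-1 and antisense partners cannot be told apart from overlapping loci without strand.

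Blue-light and dark mRNA libraries were compared with edgeR 4.0.16 in R 4.3.3 (two-sided quasi-likelihood F-test; TMM; low counts removed by filterByExpr with a minimum of 10). Calls needed an adjusted p under 0.05 (Benjamini-Hochberg, all tested loci). The filter can be passed by counts in 1 condition only, so tested members are not all members of a list. Footprint libraries, with 2888624 to 4919808 counts, were fitted alone in the same way. The common dispersion was 0.0522 in mRNA and 0.00226 in footprints. The SE is the fold change divided by the square root of F. CPM use TMM-adjusted library sizes and are not per length. Intervals cover counting error only. The test was checked on simulated counts for 7822 loci, where 3.3% of its calls were false. All simulated loci had the common dispersion, so differences in spread between loci were not covered.

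Named were the 12 largest rises and falls with a mean of at least 30 counts, the 5 called loci of highest CPM in each direction, up to 4 members of each of 29 hand-written lists and up to 3 of each product class. Only called loci whose groups did not overlap could be named, a condition that all called loci outside the antenna and photosystems met. Others were picked after their values were seen. Members and lists were chosen with earlier results of these data known. Symbols came from a table for TAIR10.1, which matched 26719 loci and lacks product text, so classes used names. Its coordinates are not used here, and promoter motifs were not analysed. Alternatives used DESeq2 1.42.0 and limma 3.58.1.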

Additional observations from a re-analysis of the deposited data

How the results depend on the processing

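The number of nuclear mRNAs called higher, 222 with antenna and photosystem genes, lay between 167 (DESeq2 Wald test) and 228 (the lowest model number kept for each locus) under the alternatives that kept all libraries, and between 152 and 244 with 1 library left out. The number called lower, 82, fell to 54 with the DESeq2 Wald test and lay between 65 (limma-voom) and 86 (DESeq2 size factors) under the others that kept all libraries. With 1 library left out it ranged from 49 to 128. The cause was not tested. Without the 3 abundant loci, an alternative chosen after seeing the data, 200 were higher and 84 lower. Same-direction footprint calls numbered 251, and 247 to 251 under the footprint alternatives. The median log2 change over all loci stayed between -0.05 and 0.04. The deviations of same-numbered libraries from their group means had a correlation of 0.0291. At this low depth that value does not decide whether replicate numbers pair the samples. With the replicate number as a block 213 were higher and 72 lower. Of the 94 loci that the naming rule picked, WAG1, AT3G59940, HOG1, SQD1 and UGP2 lost their call with that block. WAG1, AT3G59940, HOG1, FSD1 and SQD1 lost it with nuclear loci alone, and HOG1 and SQD1 with DESeq2 size factors. Of other loci described above J8, STO, COL5 and EDA10 lost theirs with the block. Without the abundant loci STO, HOG1, FSD1 and ALP lost theirs. Besides the loci given with its values above, limma-voom did not call BES1, APR2, J8, GDCH, TT5, CPN20, SIGE, EBF2, FSD2, GNC and ABA1 (adjusted p from 0.0921 to 0.664), nor the DESeq2 Wald test STO, STP1, APR2, AT1G80440, AT3G59940, J8, EBF1, EBF2, SCL30A, EDA10, FSD1, COL5 and ALP (0.0511 to 0.202). Low depth limits calls of small changes.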
